A study of Danio rerio with 14 samples.

Results

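The libraries numbered 3 and 4 of each treatment were compared with the libraries numbered 1 and 2 of the same treatment, to describe which organs and maturation programmes varied between larval samples of 1 group. All 12 libraries with a column in the deposited tables entered, of 14 samples in the series, with 6 libraries on each side. The split was proposed from these same values, as the sign of each library on the leading principal component after group means were removed, so every difference between the sides is given as a description with no p-value. This component held 37.9% of the variance within groups, and the second held 15.8%.

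Whole larvae of AB wild-type zebrafish were collected at 96 hours post fertilization (hpf), after an exposure that began at 3 hpf. The groups were boscalid at 0.03 µg/L, M510F01 at 0.03 µg/L and the solvent dimethyl sulfoxide (DMSO) at 0.01%, with 4 libraries each, numbered 1 to 4. Boscalid is a fungicide that inhibits succinate dehydrogenase, which is complex II of the respiratory chain, and M510F01 is a metabolite of boscalid. A further sample of each compound was not analysed here. The labels do not say what a replicate number stands for, whether a clutch, a tank, a pool of larvae or a day of preparation. Differences between clutches, in age or handling of the larvae and in library preparation therefore cannot be told apart in what follows, and p-values measure only the spread between these samples.

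At this age a zebrafish larva is leaving its yolk. Yolk lipid is packed into lipoproteins by the yolk syncytial layer and used by the growing body, while liver, exocrine pancreas and intestine take up digestion and secretion. Over the same days neurons of the brain and retina build synapses, and the thymus begins to fill with lymphoid cells. In RNA of whole larvae a higher share of an organ in the body and more RNA of its genes per cell cannot be told apart.

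On the first component the libraries numbered 3 scored 17.5 in boscalid, 9.16 in M510F01 and 30.5 in DMSO, and those numbered 4 scored 37.5, 30.04 and 10.6 in the same order. The libraries numbered 1 scored -47.2, -31.8 and -28.0, and those numbered 2 scored -7.79, -7.41 and -13.2. The libraries numbered 1 lay farthest out on their side in each group, and the libraries nearest to 0 were M510F01 number 3 on one side and M510F01 number 2 on the other.

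**Figure D1:**
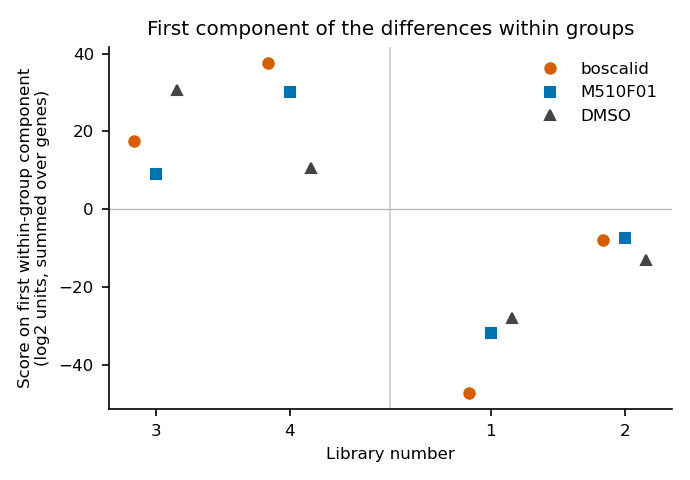
Score of each library on the first component of the log2 levels centred by group, for boscalid, M510F01 and DMSO, with libraries numbered 3 and 4 left of those numbered 1 and 2. All 6 libraries numbered 3 and 4 are above 0, between 9.16 and 37.5, and all 6 numbered 1 and 2 are below 0, between -47.2 and -7.41.

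Depth differed little between the sides. Reads assigned to genes ran from 13728285 to 17060350 in numbers 3 and 4 and from 12893093 to 15413193 in numbers 1 and 2. The median library had 29590 genes with a read in numbers 3 and 4 and 29767 in numbers 1 and 2. Genes for cytosolic ribosomal proteins took 4.06 to 5.19% of reads in numbers 3 and 4 and 3.01 to 4.40% in numbers 1 and 2. The 10 most abundant genes of each library took 11.5 to 13.7% and 12.4 to 14.0% in the same order, and mitochondrially encoded genes took 1.45 to 1.72% and 1.43 to 1.61%. The part of depth and of these shares in the differences below was not tested. Gene length and GC content could not be set against the differences, so their part was not tested either.

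Of 23131 genes tested, those averaging 10 normalized counts or more, the side difference was counted where both libraries numbered 3 and 4 lay beyond both libraries numbered 1 and 2 in each of the 3 groups. By that rule 1447 genes were higher in numbers 3 and 4 (6.26% of genes tested) and 2269 were lower (9.81%). Adding a mean log2 difference of at least 0.5 left 107 higher genes (0.463%) and 1048 lower genes (4.53%). The same values chose the split, so nothing is read from these shares. The median log2 difference of all genes was 0.02, with an SD of 0.30 over genes. Lower genes outnumbered higher genes and reached larger differences. With no minimum, most genes in either direction differed by less than 0.5, and nearly all of the higher ones did. The libraries numbered 1 contributed most. The 1048 lower genes had a median log2 difference of -0.80 when numbers 3 and 4 were set against number 1 and -0.48 against number 2, and 581 genes were lower when the 3 libraries numbered 1 were left out, a comparison added after the data were seen. Without them 153 genes were higher. Leaving out 1 library moved the count of higher genes past 1.5 times in 6 cases, with 229 without boscalid number 2, 168 without boscalid number 3, 235 without M510F01 number 2, 210 without M510F01 number 3, 204 without DMSO number 2 and 287 without DMSO number 4.

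The programme with the most even difference was translation. Among 83 genes for cytosolic ribosomal proteins, which together with ribosomal RNA form the ribosome, all 83 had a positive log2 difference, between 0.18 and 0.62, with a median of 0.41. In 73 of them (88.0%, against 6.26% of all genes tested) numbers 3 and 4 lay above numbers 1 and 2 in each group. The median was 0.44 in boscalid, 0.35 in M510F01 and 0.43 in DMSO.

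rpl37, a protein of the large ribosomal subunit, had 3958, 4821 and 5833 normalized counts as the lowest, median and highest of numbers 3 and 4, against 2234, 3208 and 4187 in numbers 1 and 2. The ranges overlapped only because boscalid number 2, at 4187, was above M510F01 number 3, and inside each group they did not. Its log2 difference was 0.62 ± 0.12 (SE, 12 libraries). rps29 and rpl36 differed by 0.54 each.

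Genes that make and supply ribosomes were less even. Of 58 ribosome biogenesis genes 52 were positive, with a median of 0.25. Of the 58, 12 were higher without overlap in any group (20.7%, against 6.26% of all genes tested). Examples are nip7, an assembly factor of the large subunit (0.56 ± 0.11), imp3, of the small subunit processome (0.48 ± 0.12), and nhp2, of H/ACA ribonucleoproteins that modify ribosomal RNA (0.45 ± 0.10). Only 1 of the 58 was lower by the rule of no overlap (1.72%, against 9.81% of all genes tested). Of 76 mitochondrial ribosomal protein genes 74 were positive, with a median of 0.27, led by mrpl18 (0.47 ± 0.13) and mrps18c (0.44 ± 0.13). Of the 76, 24 were higher without overlap (31.6%, against 6.26% of all genes tested). Proteasome subunit genes had a median of 0.24, and 34 of 36 were positive. adrm1, a ubiquitin receptor of the proteasome, had a value of -0.51 ± 0.18 with overlap.

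**Figure D2:**
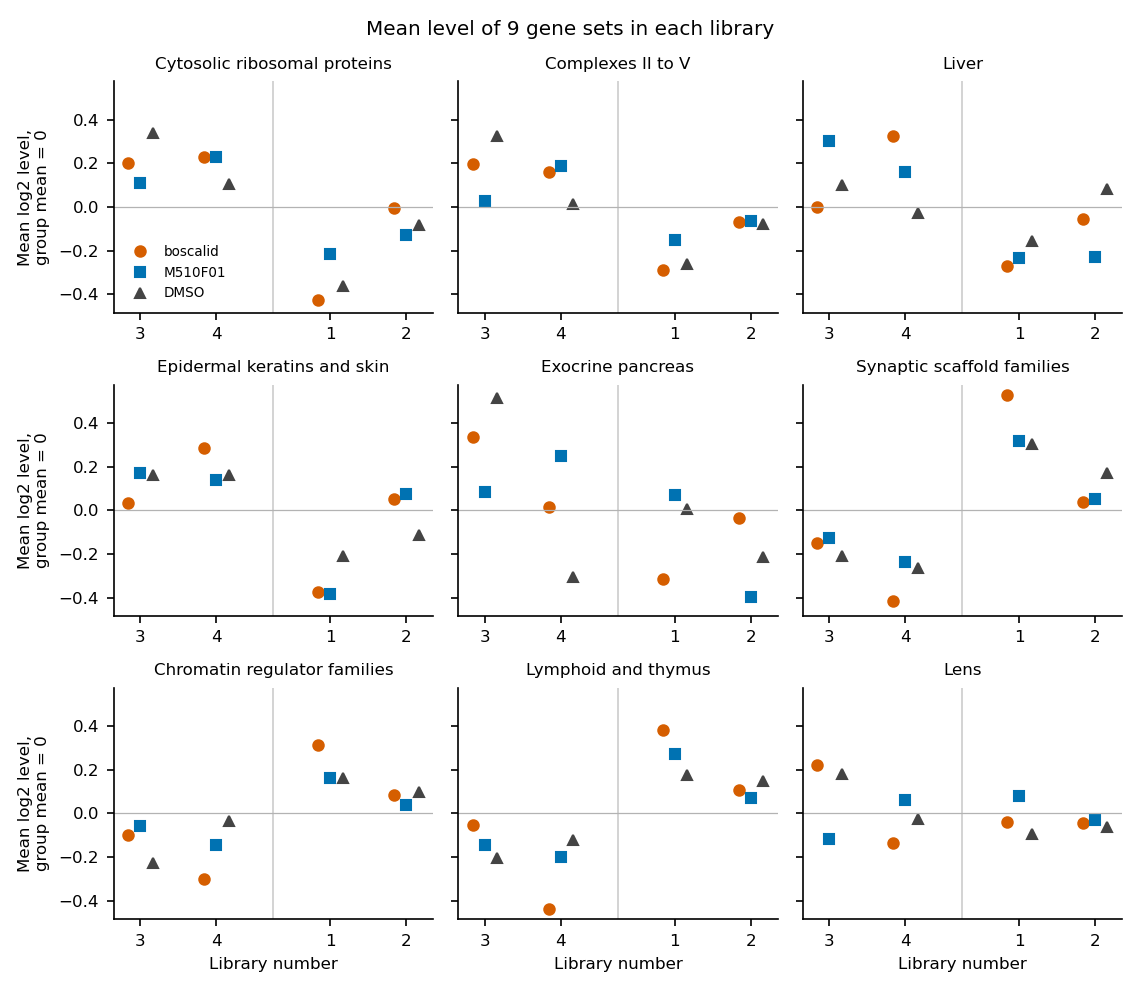
Mean log2 level of 9 gene sets in each library, with the mean of its treatment group set to 0, plotted by library number with 3 and 4 left of 1 and 2. Ribosomal proteins in numbers 3 and 4 lie between 0.10 and 0.34 and in numbers 1 and 2 between -0.43 and 0.00. Synaptic scaffold families lie between -0.41 and -0.13 in numbers 3 and 4 and between 0.04 and 0.53 in numbers 1 and 2, while exocrine pancreas and lens overlap.

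Nuclear genes of the respiratory chain were higher in numbers 3 and 4 as well. For complexes II to V, 51 of 52 genes were positive, with a median of 0.31. Without overlap in any group 25 were higher (48.1%, against 6.26% of all genes tested). All 38 measured complex I genes were positive, between 0.14 and 0.51, with a median of 0.31 and 13 (34.2%) without overlap. cox6a2, the muscle form of a cytochrome c oxidase subunit, had 59.8, 71.6 and 81.1 normalized counts in numbers 3 and 4, against 35.8, 41.8 and 64.9 in numbers 1 and 2. The upper value of numbers 1 and 2 belonged to M510F01 number 2 and reached into the range of numbers 3 and 4. The difference was 0.69 ± 0.13, and cox6b1, another subunit of the same enzyme, differed by 0.45 ± 0.08 with no overlap of the 6 and 6 libraries, at 567 to 650 against 368 to 520.

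The exception was sdha, the catalytic flavoprotein of succinate dehydrogenase, chosen for mention after its values were seen. It had 1741, 1859 and 2072 normalized counts in numbers 3 and 4 and 2103, 2462 and 2598 in numbers 1 and 2, so the ranges did not meet, and its difference was -0.35 ± 0.07. The value was -0.28 in boscalid, -0.46 in M510F01 and -0.31 in DMSO. The other subunits of the enzyme were positive, at 0.23 for sdhb, 0.42 for sdhc, 0.22 for sdhda and 0.30 for sdhdb.

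The 12 measured mitochondrially encoded genes did not follow the nuclear ones. Their median difference was -0.07, and the groups disagreed, with 0.20 in boscalid, -0.45 in M510F01 and -0.04 in DMSO. mt-nd5, a complex I subunit, had 6713, 7646 and 8528 normalized counts in numbers 3 and 4, against 7640, 10086 and 12468 in numbers 1 and 2, with overlap. mt-atp8, an ATP synthase subunit, was among the 5 named genes with the smallest unadjusted p for a dependence of the side difference on treatment (limma, unadjusted p = 0.000527), and its adjusted p was 1.

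Yolk and lipoprotein genes were higher in numbers 3 and 4. Of 24 members 18 were measured and 17 of these were positive, with a median of 0.36. Of the 18, 6 were without overlap (33.3%, against 6.26% of all genes tested). apoea, an apolipoprotein E of circulating lipoproteins, had 5214, 6252 and 8541 normalized counts in numbers 3 and 4, against 3656, 3997 and 5318 in numbers 1 and 2. Inside each group all values of numbers 3 and 4 were above those of numbers 1 and 2, and the difference was 0.61 ± 0.09. pla2g12b, which in zebrafish and mouse is needed for secretion of lipid-rich lipoproteins, had 1196, 1509 and 1926 against 807, 1035 and 1158, with no overlap at all and a difference of 0.60 ± 0.09. gch2, a pteridine pigment enzyme that stood in the yolk and the xanthophore lists, had a value of 0.63 ± 0.20 with overlap. It is a pigment gene, yet it counts among the 17 positive members of the yolk list and was the highest of them.

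Digestive organs had positive medians, with few genes free of overlap. Of 58 liver genes 57 were positive, with a median of 0.29. Yet 2 (3.45%, against 6.26% of all genes tested) were higher without overlap in every group. The liver median was 0.31 in boscalid, 0.45 in M510F01 and 0.05 in DMSO. vtna, vitronectin of blood plasma, had 194, 305 and 398 normalized counts in numbers 3 and 4, against 153, 194 and 215 in numbers 1 and 2, a difference of 0.61 ± 0.17. apom, an apolipoprotein made by liver, differed by 0.55 ± 0.11, and ttr, the thyroid hormone carrier transthyretin, by 0.48 ± 0.19, both with overlap. fabp10a, the liver fatty acid binding protein, had 1722, 3462 and 3672 normalized counts in numbers 3 and 4 and 1948, 2372 and 2592 in numbers 1 and 2. Its lowest value was in numbers 3 and 4.

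All 24 measured exocrine pancreas genes were positive, with a median of 0.29. None met the rule of no overlap in each group, against 6.26% higher among all genes tested. prss59.2, a trypsin, had 11813, 16960 and 22315 normalized counts in numbers 3 and 4, against 10377, 12419 and 15204 in numbers 1 and 2, a difference of 0.46 ± 0.12. sycn.2, a syncollin of zymogen granules, had 364, 969 and 1353 against 489, 571 and 707, so that numbers 3 and 4 held both the lowest and the highest library. The mean level of the list ran from -0.31 to 0.51 around the group means in numbers 3 and 4 and from -0.40 to 0.07 in numbers 1 and 2. DMSO number 3 was the highest and DMSO number 4 the lowest of numbers 3 and 4.

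Among 47 intestinal genes 40 were positive, with a median of 0.28 and 6 higher without overlap (12.8%, against 6.26% of all genes tested). rbp2a, a retinol binding protein of enterocytes, had 1103, 1711 and 1954 normalized counts in numbers 3 and 4, against 800, 1103 and 1362 in numbers 1 and 2, a difference of 0.60 ± 0.10. dab2, an endocytic adaptor of enterocytes that take up protein, was on the other side at -0.68 ± 0.16 with overlap. cckb, a cholecystokinin peptide of gut and brain, had 130, 198 and 216 against 105, 117 and 132. All libraries numbered 3 and 4 lay above those numbered 1 and 2 of their own group, and the difference was 0.61 ± 0.13. Pancreatic islet genes had a median of 0.02, and abcc8, the sulfonylurea receptor of the beta cell potassium channel, was lower at -0.54 ± 0.08.

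Surface epithelia were on the same side as the digestive organs. Of 57 epidermal keratin and skin genes 54 were positive, with a median of 0.31. Of the 57, 7 were without overlap (12.3%, against 6.26% of all genes tested). aep1, an aerolysin-like protein, had 738, 908 and 1221 normalized counts in numbers 3 and 4, against 305, 497 and 915 in numbers 1 and 2, a difference of 0.83 ± 0.20. cyt1, a type I keratin, had 9555, 13151 and 18604 against 4884, 8250 and 14068, with overlap and a value of 0.61 ± 0.18. For the whole list the libraries numbered 1 were low in all 3 groups, with a mean of -0.32 around the group means, and those numbered 2 were at 0.00.

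Ionocyte genes, which serve ion uptake through the skin, had a median of 0.22, and 34 of 39 were positive. Of the 39, 3 were higher without overlap (7.69%, near the 6.26% of all genes tested). Lower without overlap was 1 (2.56%, against 9.81%). atp1a1a.3, a sodium pump subunit, had a value of 0.57 ± 0.11 with overlap. In mucous cells agr2, a disulfide isomerase needed for mucin folding, was 0.51 ± 0.12 higher without overlap in any group, and muc5.3, a gel-forming mucin, was lower at -0.53 ± 0.11. Both stood in 1 list with a median of 0.27 over 14 genes.

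Redox and lipid oxidation genes were also on the higher side. Of 41 Nrf2 and oxidative stress genes 35 were positive, with a median of 0.28. Of the 41, 11 were higher without overlap (26.8%, against 6.26% of all genes tested). gstp1, a glutathione transferase, had 3379, 3800 and 4396 normalized counts in numbers 3 and 4, against 2275, 2729 and 2946 in numbers 1 and 2, with no overlap and a difference of 0.49 ± 0.08. angptl4, a fasting-induced inhibitor of lipoprotein lipase, had 1704 to 1968 against 1068 to 1520, a difference of 0.50 ± 0.09. It led 37 fatty acid oxidation and ketone genes, of which 33 were positive with a median of 0.22.

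Other named genes on the higher side belonged to varied functions. acmsd, an enzyme of tryptophan breakdown, differed by 0.70 ± 0.11 and pon1, a paraoxonase of plasma lipoproteins, by 0.60 ± 0.10. serpinf2a, the plasmin inhibitor alpha-2-antiplasmin, differed by 0.65 ± 0.11. ctbs, a lysosomal chitobiase, had 62.2 to 96.8 normalized counts in numbers 3 and 4, against 41.9 to 55.1 in numbers 1 and 2, with no overlap. dpm3, a subunit of dolichol-phosphate mannose synthase, differed by 0.61 ± 0.14, and cd28l, named after a T cell receptor for costimulation, by 0.83 ± 0.22.

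The difference of hbbe1.2, an embryonic beta globin and the first by size of the higher genes averaging 50 normalized counts or more, with placeholder symbols left out, came mainly from 1 group. It was 1.78 in M510F01, 0.38 in boscalid and 0.37 in DMSO, with 186 normalized counts in M510F01 number 4 as the highest library. Beta globin genes are near-identical copies, so counts of single members are uncertain. The 25 globin and haem genes had a median of 0.01, and hbbe1.1, another copy, had 612 to 1365 in numbers 3 and 4 and 889 to 1396 in numbers 1 and 2.

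hist1h2a2, a histone H2A gene, had 293, 327 and 410 normalized counts in numbers 3 and 4, against 168, 223 and 242 in numbers 1 and 2. The ranges did not overlap, and the difference was 0.66 ± 0.11. Histone genes as a family, gathered by symbol after the values were seen, had a median of 0.32, with 22 of 26 positive. Of the 26, 13 were higher without overlap, against 6.26% of all genes tested. Their copies are near-identical, so single members are uncertain. DNA replication and mitosis genes had a median of 0.16, with 73 of 91 positive and 7 higher without overlap (7.69%, near the 6.26% of all genes tested). dhfr, which supplies folate for thymidine synthesis, differed by 0.40 ± 0.08.

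**Figure D3:**
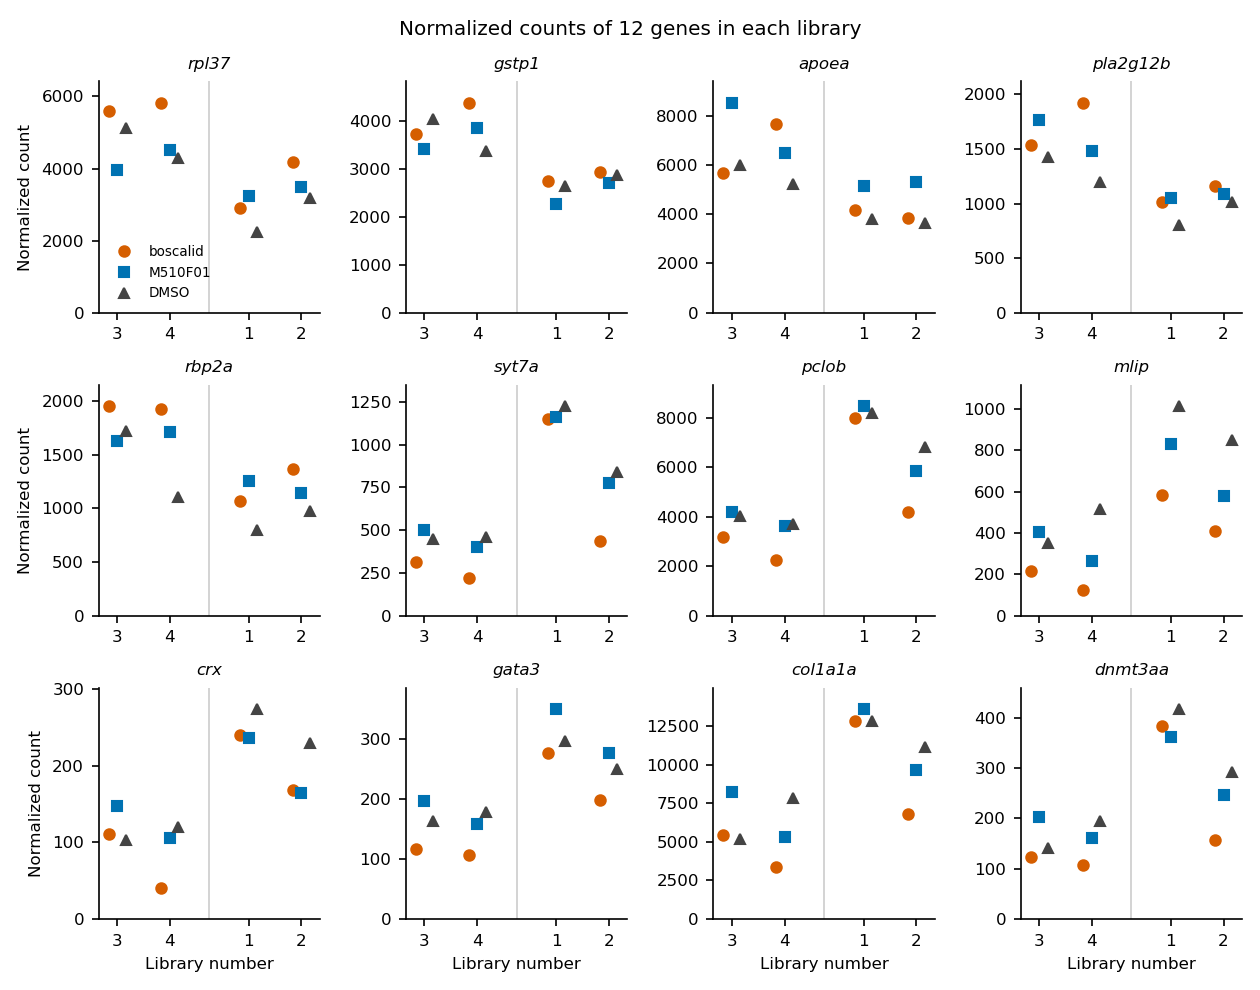
Normalized counts of 12 genes in each library of boscalid, M510F01 and DMSO, by library number with 3 and 4 left of 1 and 2, each axis starting at 0. The upper row and rbp2a are higher in numbers 3 and 4. For syt7a all libraries numbered 3 and 4 are at 503 or below, while the 3 libraries numbered 1 stand at 1150 to 1226.

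Many genes of neurons and synapses were on the lower side, and whether gene length had a part in this was not tested. syt7a, a synaptotagmin that senses calcium for slow vesicle release, had 222, 425 and 503 normalized counts in numbers 3 and 4, against 438, 995 and 1226 in numbers 1 and 2. The low end of numbers 1 and 2 was boscalid number 2, and inside each group the sides did not overlap. The log2 difference was -1.22 ± 0.22. pclob, the active zone scaffold piccolo, had 2275, 3683 and 4216 against 4197, 7410 and 8496, a difference of -0.97 ± 0.15. syn2b, a synapsin that tethers synaptic vesicles, had 39.7, 92.3 and 135 against 95.2, 185 and 234, a difference of -0.998 ± 0.201. nyap2b, a phosphoprotein of neurons that binds PI3 kinase, had 65.2 to 207 against 217 to 406, with no overlap and a difference of -1.19 ± 0.20. rtn4rl2a, a relative of the Nogo receptor of axons, differed by -1.02 ± 0.19.

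In the list of 39 neuronal synapse genes 29 were negative, with a median of -0.18. Without overlap in any group 10 were lower (25.6%, against 9.81% of all genes tested). syt1a, the main calcium sensor of fast release, had 1040, 1567 and 2038 normalized counts in numbers 3 and 4, against 1921, 2583 and 3036 in numbers 1 and 2, a difference of -0.73 ± 0.12. syn1, another synapsin, differed by -0.66 ± 0.13. Members of the list were uneven. sv2a, a vesicle glycoprotein, was lower at -0.60 ± 0.12, stxbp1a, which binds syntaxins, was lower without overlap at -0.43 ± 0.11, and vamp2, a vesicle SNARE protein, had a value of -0.51 ± 0.19 with overlap. elavl3, an RNA-binding protein of all new neurons, had 4323, 4806 and 5034 in numbers 3 and 4, against 4958, 5741 and 6175 in numbers 1 and 2, a value of -0.24 ± 0.07 with overlap. snap25a, a SNARE protein of the release machinery, had 2275 to 3403 in numbers 3 and 4 and 2582 to 3115 in numbers 1 and 2, a value of 0.10 ± 0.09. These 5 genes were chosen for mention after their values were seen.

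Families of synaptic scaffold, active zone and adhesion proteins were gathered by symbol after the values were seen and get no test. Of 83 measured members 79 were negative, with a median of -0.43. Without overlap 54 were lower (65.1% of the family, against 9.81% of all genes tested). With the minimum of 0.5 the count was 35, or 42.2%, against 4.53% of all genes tested. shank2, a postsynaptic scaffold, had 192, 295 and 411 normalized counts in numbers 3 and 4, against 336, 599 and 677 in numbers 1 and 2, a difference of -0.93 ± 0.15. bsnb, the active zone protein bassoon, differed by -0.85 ± 0.16 and pcloa, a second piccolo gene, by -0.85 ± 0.13. The family median was -0.54 in boscalid, -0.37 in M510F01 and -0.44 in DMSO.

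Ion channels and guidance receptors lay on the same side, again gathered after the values were seen. Voltage-gated potassium, calcium and sodium channel genes had a median of -0.30, with 86 of 92 negative. Of the 92, 42 were lower without overlap (45.7%, against 9.81% of all genes tested). kcnq2b, a potassium channel that damps firing, had 233 to 449 normalized counts in numbers 3 and 4, against 423 to 727 in numbers 1 and 2, a difference of -0.86 ± 0.14. Cadherin, adhesion and axon guidance families had a median of -0.26, with 96 of 104 negative and 43 (41.3%) lower without overlap. dcc, a netrin receptor of growing axons, differed by -0.85 ± 0.14 and dscamb, an adhesion molecule that spaces neurites, by -0.76 ± 0.14. Neural progenitor genes had a median of 0.09 and myelin genes 0.04. Their lists had 1 gene each on either side without overlap (2.94% and 5%), against 6.26% higher and 9.81% lower of all genes tested.

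Photoreceptors split by gene. crx, the homeobox factor of rods and cones, had 40.7, 108 and 148 normalized counts in numbers 3 and 4, against 164, 233 and 274 in numbers 1 and 2. All 6 libraries numbered 3 and 4 were below all 6 numbered 1 and 2, and the difference was -1.13 ± 0.23. nrl, the factor that commits precursors to the rod fate in mouse, had 28.5, 45.2 and 72.1 against 68.1, 84.6 and 102, a difference of -0.91 ± 0.20. cngb1a, a subunit of the rod cyclic nucleotide channel, differed by -0.81 ± 0.16.

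Most rod effector genes were near 0, and the 27 rod genes had a median of 0.05. Without overlap none of the 27 was higher and 4 (14.8%) were lower, against 6.26% and 9.81% of all genes tested. gnat1, the rod transducin, had 572, 840 and 1051 normalized counts in numbers 3 and 4, against 692, 809 and 990 in numbers 1 and 2, a value of -0.05 ± 0.10. rho, rod opsin, had a value of -0.59 ± 0.21, which was 0.09 in boscalid, -1.28 in M510F01 and -0.58 in DMSO. In cones slc24a2, a sodium, calcium and potassium exchanger, was lower at -0.83 ± 0.18, and the 33 cone genes had a median of 0.10. Of these 33, none was higher and 1 (3.03%) was lower without overlap. Lens genes had a median of 0.03 over 55 genes and visual cycle genes 0.19 over 25.

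Lymphoid genes had a median of -0.44, with 12 of 14 measured genes negative. A further 10 of its 24 genes were below the minimum level. Of the 14 measured, 6 were lower without overlap (42.9%, against 9.81% of all genes tested). gata3, a factor of T cells and of neurons and epithelia, had 107, 161 and 196 normalized counts in numbers 3 and 4, against 198, 276 and 350 in numbers 1 and 2. No library numbered 3 or 4 reached the range of numbers 1 and 2, and the difference was -0.85 ± 0.11. ccl25a, a chemokine that draws precursors to the thymus, had 20.8, 37.4 and 63.0 against 55.6, 70.0 and 77.6, a difference of -0.92 ± 0.23. bcl11ba, a factor of the T cell lineage that is also used in neurons and skin, differed by -0.67 ± 0.11, and tcf7, an effector of Wnt signalling in T cells, by -0.60 ± 0.16.

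Of genes restricted to lymphoid cells, rag1 and lck were low in counts and overlapped. rag1, the recombinase of antigen receptor genes, had 17.3, 31.8 and 35.4 normalized counts in numbers 3 and 4, against 18.9, 39.5 and 70.9 in numbers 1 and 2, a value of -0.48 ± 0.24. lck, a kinase of T cells, had 5.34, 10.5 and 15.6 against 9.43, 13.7 and 22.5. Both were chosen for mention after their values were seen. The list median was -0.29 without the 3 libraries numbered 1 and -0.17 over all 24 genes with no minimum level. At that setting it no longer lay below the neuronal synapse list, at -0.18. Neutrophil and macrophage genes had no member without overlap among 40, against 6.26% higher and 9.81% lower of all genes tested. mpx, the neutrophil peroxidase, had 155 to 375 in numbers 3 and 4 and 152 to 276 in numbers 1 and 2.

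**Figure D4:**
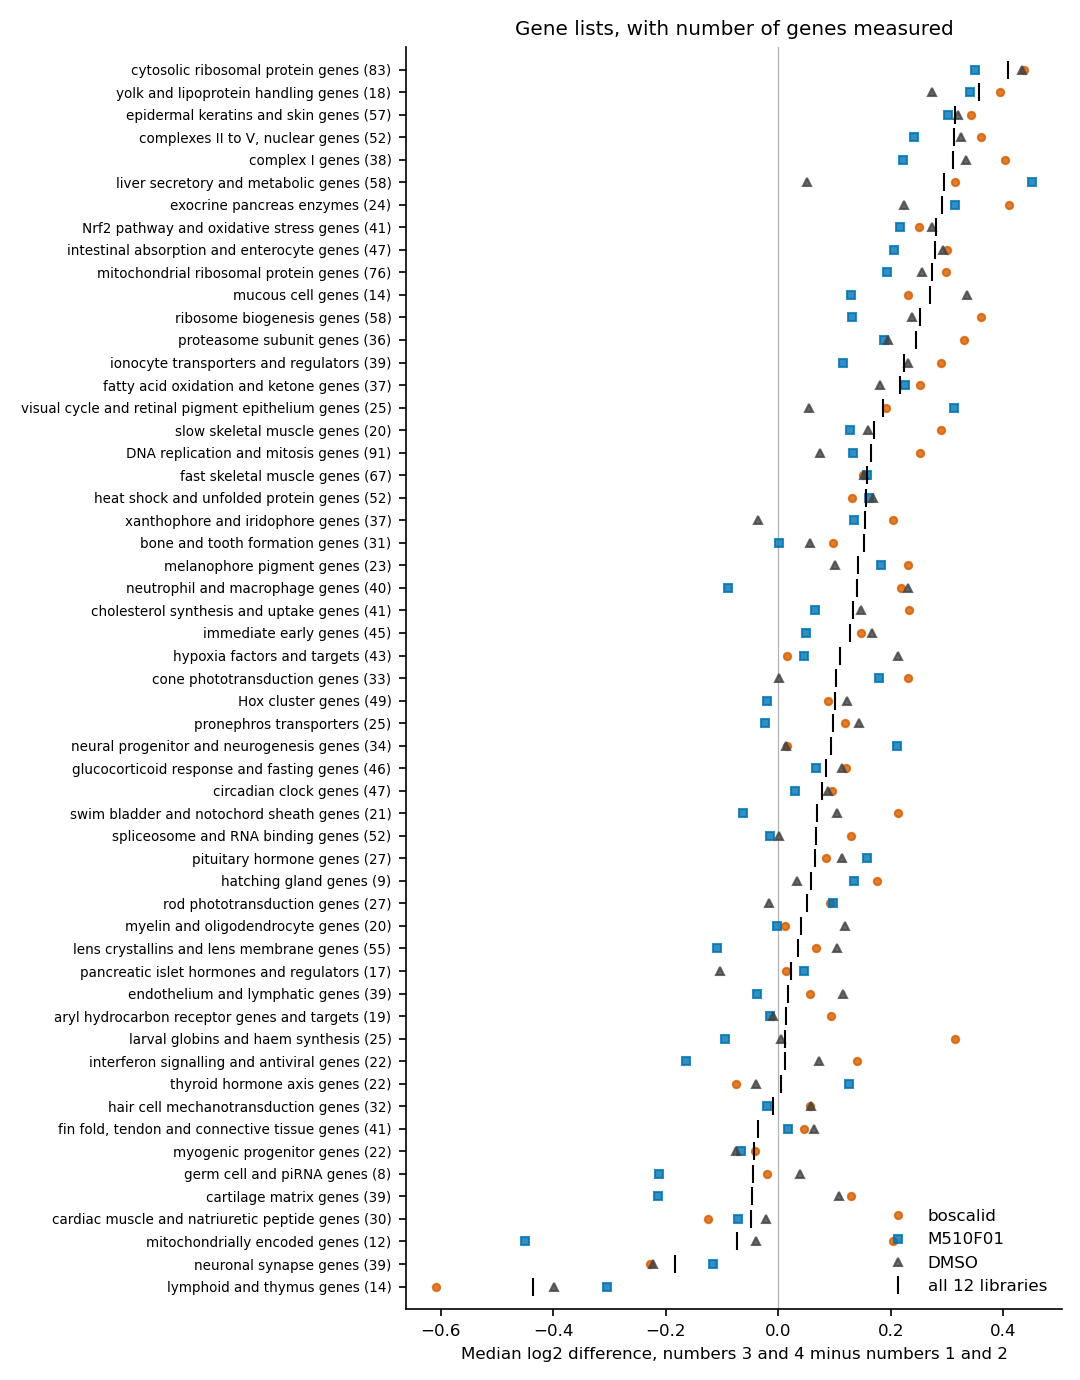
Median log2 difference of each of 55 gene lists, numbers 3 and 4 minus numbers 1 and 2, over all 12 libraries (bar) and inside boscalid, M510F01 and DMSO (symbols), with the number of genes measured. Medians run from -0.44 for lymphoid and thymus genes to 0.41 for cytosolic ribosomal protein genes, and 46 of 55 are above 0.

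Named genes of the skeleton lay mostly on the lower side. col1a1a, a chain of the main collagen of bone, skin and tendon, had 3351, 5396 and 8223 normalized counts in numbers 3 and 4, against 6818, 11984 and 13609 in numbers 1 and 2. Boscalid number 2 was the low library of numbers 1 and 2, and the difference was -0.94 ± 0.19. col1a2 and col1a1b, the other chains of this collagen, differed by -0.82 ± 0.16 and -0.65 ± 0.15. runx2b, a factor of bone and cartilage formation, had 61.1 to 116 against 113 to 168, a difference of -0.67 ± 0.13. The other bone genes were mostly positive, so that the list of 31 had a median of 0.15, with 20 positive. The medians inside boscalid, M510F01 and DMSO were 0.10, 0.002 and 0.06. Without overlap 3 were higher (9.68%) and 4 lower (12.9%), against 6.26% and 9.81% of all genes tested.

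In cartilage sox9a, the factor of chondrocyte formation, had 502, 654 and 925 normalized counts in numbers 3 and 4, against 857, 1158 and 1333 in numbers 1 and 2, a difference of -0.74 ± 0.14. col2a1a, the main collagen of cartilage and notochord, had 9828 to 19871 against 14674 to 29156, a value of -0.85 ± 0.18 with overlap. The 39 cartilage genes had a median of -0.05, and 3 were without overlap on each side (7.69% each), near the 6.26% higher and 9.81% lower of all genes tested. elnb, an elastin of the heart outflow tract and swim bladder, had 42.1 to 155 against 79.1 to 412, with overlap and a value of -1.63 ± 0.43.

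Named muscle genes lay on both sides. mlip, a partner of lamin in muscle nuclei and the first by size of the lower genes under the same limits of level and symbol, had 124, 309 and 518 normalized counts in numbers 3 and 4, against 410, 708 and 1015 in numbers 1 and 2, a difference of -1.26 ± 0.18. Inside each group all values of numbers 3 and 4 were lower. cfl2, a cofilin of muscle thin filaments, differed by -0.95 ± 0.21. The 67 fast muscle genes had a median of 0.16, with 5 higher (7.46%) and 7 lower (10.4%) without overlap, shares near the 6.26% and 9.81% of all genes tested. myl1, an essential light chain of fast myosin, had 664, 1269 and 1648 against 1907, 2272 and 2589, with no overlap and a difference of -0.94 ± 0.18.

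The other lower members included giant proteins and calcium handling proteins, named here after their values were seen. neb, the thin filament ruler nebulin, had 33264, 45586 and 54013 normalized counts in numbers 3 and 4, against 51138, 57640 and 60785 in numbers 1 and 2, a difference of -0.35 ± 0.09. ryr1b, the calcium release channel, differed by -0.31 ± 0.08, ttn.1, a titin, by -0.24 ± 0.10, and jph1a, a junctophilin that ties tubules to the calcium store, by -0.53 ± 0.08. On the higher side were gapdh of glycolysis (0.42 ± 0.11), the calcium buffer pvalb4 (0.38 ± 0.07) and the myosin heavy chain myhb (0.38 ± 0.07). These higher genes too were chosen for mention after their values were seen. The 30 heart genes had a median of -0.05, with 2 higher (6.67%) and 3 lower (10%) without overlap. These shares were near the 6.26% and 9.81% of all genes tested. In this list the ion channel genes kcnh6a and hcn4 were lower, at -0.70 ± 0.11 and -0.69 ± 0.16, as was the cardiac factor tbx20 at -0.62 ± 0.14. Its highest member was cox6a2 at 0.69.

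Many regulators of chromatin lay on the lower side. dnmt3aa, a DNA methyltransferase that sets new marks, had 107, 151 and 202 normalized counts in numbers 3 and 4, against 157, 327 and 417 in numbers 1 and 2, a difference of -0.96 ± 0.20. Families of chromatin regulators and coactivators, gathered by symbol after the values were seen, had a median of -0.27, with 98 of 132 negative. Of the 132, 63 were lower without overlap (47.7%, against 9.81% of all genes tested). By at least 0.5 it was 37 of these (28% of the families, against 4.53%). taf3, of the general factor TFIID, differed by -0.92 ± 0.13. rprd2b, which binds the tail of RNA polymerase II, differed by -0.97 ± 0.23, and srrm1, a splicing coactivator, by -0.66 ± 0.14. The 52 spliceosome and RNA binding genes were not lower as a list, with 30 positive and a median of 0.07. Without overlap 8 of them were higher (15.4%) and 6 lower (11.5%), against 6.26% and 9.81% of all genes tested.

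The remaining lower genes of the named set were gal3st3, a sulfotransferase of galactose residues, at -1.10 ± 0.16, ppp1r18, which encodes phostensin, a regulator of actin ends, at -1.08 ± 0.21, nfatc1, a calcineurin-driven factor, at -1.02 ± 0.20, csrnp2, a nuclear factor, at -0.97 ± 0.19, and zdhhc14, a palmitoyltransferase, at -0.95 ± 0.15. Each was lower without overlap in all 3 groups.

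**Figure D5:**
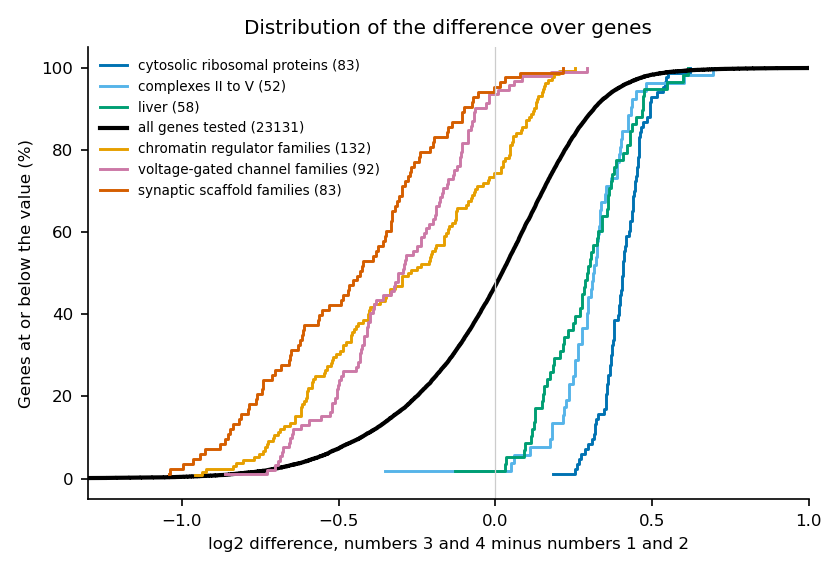
Share of genes at or below each log2 difference, numbers 3 and 4 minus numbers 1 and 2, for all 23131 genes tested and for 6 gene sets, of which the 3 families on the left were gathered after the values were seen. Ribosomal protein genes lie in a narrow band from 0.18 to 0.62, and synaptic scaffold families spread from -1.04 to 0.22.

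Clock genes differed in both directions inside 1 list of 47, with 8 higher and 8 lower without overlap and a median of 0.08. Each side held 17.0% of the list, against 6.26% higher and 9.81% lower of all genes tested. per3, a repressor of the clock, had 2457, 3466 and 3975 normalized counts in numbers 3 and 4, against 3562, 5303 and 6157 in numbers 1 and 2, a difference of -0.60 ± 0.11. arntl1b, a partner of Clock, differed by -0.62 ± 0.13, hlfa, an output factor, by -0.70 ± 0.14, and clocka by -0.39 ± 0.10. ciarta, a repressor of the Clock complex, had 1318, 1646 and 1811 against 997, 1115 and 1193, with no overlap and a difference of 0.51 ± 0.09. The light-induced repair enzyme cry5 and the output factor tefa were also higher, at 0.40 ± 0.10 and 0.41 ± 0.08. clocka, cry5 and tefa were chosen for mention after their values were seen. The labels give no hour of sampling for the numbers.

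Some other regulators were lower by the same rule, in lists whose members were mostly positive. hif1ab, an oxygen-sensing factor, differed by -0.52 ± 0.10, ppargc1a, a coactivator of mitochondrial genes, by -0.64 ± 0.11, srebf1, a factor of lipid synthesis, by -0.68 ± 0.13, and thrab, a thyroid hormone receptor, by -0.42 ± 0.09. Their lists had medians of 0.11 for hypoxia, 0.08 for glucocorticoid and fasting genes, 0.13 for cholesterol and 0.01 for the thyroid axis. In the same order 31 of 43, 28 of 46, 32 of 41 and 12 of 22 genes were positive. Without overlap 3 (6.98%), 7 (15.2%), 3 (7.32%) and 1 (4.55%) were higher, against 6.26% of all genes tested. Lower without overlap were 2 (4.65%), 3 (6.52%), 2 (4.88%) and 2 (9.09%), against 9.81%. In the aryl hydrocarbon receptor list, with a median of 0.01, cyp1a had 485 to 2183 normalized counts in numbers 3 and 4 and 348 to 1394 in numbers 1 and 2. These ranges pool the 3 groups, and cyp1a was lower with boscalid than with DMSO, by 1.71 on the log2 scale. With group as a covariate its side difference was 0.45, with overlap. Across the 55 lists the medians of 32 were positive in each of the 3 groups and those of 4 were negative in each. In 8 lists the mean level of numbers 3 and 4 lay beyond that of numbers 1 and 2 in all groups, namely cytosolic ribosome, mitochondrial ribosome, complex I, complexes II to V, yolk, Nrf2, fatty acid oxidation and lymphoid.

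Whether the side difference depended on the treatment was tested with the interaction of split and group in limma. At an adjusted p under 0.05, 1 gene passed of 23131 (0.00432%), and 536 had an unadjusted p under 0.05. With no dependence in any gene, about 1157 would be expected. The split was chosen from these values for a sign shared by all 3 groups, which works against calls in this test, so the low count does not show that the side difference was alike in the groups. edgeR called 1 gene and DESeq2 called 4. The gene was BX469930.1, a clone-named locus, with 258 normalized counts in M510F01 number 3 and 391 in M510F01 number 4. Its other libraries held 17.8 or fewer, in M510F01 numbers 1 and 2 as in both other groups (limma, adjusted p = 0.0401). It was named after its values were seen, and no gene was called without the robust setting, at a pseudocount of 0.5 or at a mean of at least 50. With 1 library left out, 1 gene was called without boscalid number 2 or boscalid number 3, 2 genes were called without boscalid number 4, and none was called in the other cases.

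The split was then entered as a term in the treatment comparisons. It held 30.3% of the sum of squares within groups, and the median residual SD of a gene was 0.192 with the term and 0.233 without it. Because the term was chosen from these values, the residual spread it leaves may be too small and the p-values of these fits with it.

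For boscalid against DMSO 26 genes were called with the term (0.112% of genes tested), 8 higher and 18 lower, by limma at an adjusted p under 0.05, and 9 without it, all 9 of them among the 26. The genes called included cyp1b1, a cytochrome P450 induced by the aryl hydrocarbon receptor, with 85.6, 74.3, 72.01 and 60.3 normalized counts in boscalid libraries numbered 3, 4, 1 and 2, against 438, 327, 322 and 364 in the DMSO libraries of these numbers. The groups did not overlap, and the log2 difference was -2.29 ± 0.16 (SE, limma adjusted p = 1.71e-05). cyp1a fell by 1.71 ± 0.22 on the log2 scale (limma adjusted p = 0.0140). The forkhead gene foxq1a fell by 1.25 ± 0.17 and pkhd1l1, a fibrocystin-like membrane protein, by 0.96 ± 0.13, while krt15, a keratin, rose by 1.15 ± 0.15 (limma adjusted p = 0.0107 each). foxq1a was not called without the term. On the split itself cyp1a had a value of 0.45 ± 0.18, foxq1a 0.45 ± 0.14 and cyp1b1 0.27, each with overlap, and krt15 0.02.

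The count rested on single libraries. It was 509 without boscalid number 1, 63 without DMSO number 3, 16 without M510F01 number 1, 15 without DMSO number 4, 6 without DMSO number 2, 4 without boscalid number 3 and 2 without DMSO number 1. Without the 3 libraries numbered 1 it was 4. edgeR called 19 genes and DESeq2 called 316.

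For M510F01 against DMSO no gene was called with the term by limma (0% of genes tested), and none by edgeR or DESeq2. The smallest adjusted p was 0.858, and 1287 genes had an unadjusted p under 0.05, where about 1157 would be expected if no gene differed. The 5 named genes with the smallest unadjusted p were ftr63, cyp2x8, dgat1a, slc22a7b.3 and apoea. apoea, one of the genes of the split above, had 8541, 6507, 5156 and 5318 normalized counts in M510F01 libraries numbered 3, 4, 1 and 2, against 5996, 5214, 3809 and 3656 in the DMSO libraries of these numbers, a value of 0.45 ± 0.11 (limma adjusted p = 0.858). In both groups libraries 3 and 4 were above libraries 1 and 2, by 0.51 in M510F01 and 0.58 in DMSO.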

How the data were processed

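RNA of whole zebrafish larvae was sequenced in 12 libraries analysed here. The submitters' processing notes list STAR, featureCounts, cutadapt, FastQC and DESeq2, with no versions. The sources used here give neither the genome build, the annotation nor the strand setting. The authors deposited 1 table for each compound with its DMSO controls, whose unit is a signal, the read count of a gene divided by a size factor of its library. Whole reads came back for 100% of values within a tolerance of 0.01, and the DMSO reads of both tables were identical. Size factors by median of ratios were then computed over all 12 libraries at once. Normalized counts below are on this scale.

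Differences were fitted with limma 3.58.1 in R 4.3.3 (robust, with a mean-variance trend) on log2(normalized count + 1), for genes with a mean of at least 10. A fold difference on this scale understates that of low genes. The split difference is the limma coefficient with group as a covariate, with its standard error and no p-value. The interaction and both treatment comparisons were tested with Benjamini-Hochberg adjustment at 0.05. edgeR 4.0.16 (quasi-likelihood) and DESeq2 1.42.0 were run on the recovered reads, and the procedures were tested on simulated data. Figures used matplotlib 3.10.9 and pandas 2.3.3 in Python 3.11.15.

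The members and the 55 gene lists were chosen with earlier results of these data known. Of 2228 list entries 2165 matched a gene of the tables, 86 of them by an older symbol. Named were, among genes with a mean of at least 50, a symbol that is no placeholder and no overlap in any group, the 15 with the largest difference in each direction. Added were the 2 to 4 members of each list with the largest difference, and for each test the 5 genes with the smallest p. Some genes this rule names are not reported here. Between libraries of 1 group the chi-square per gene was 5.44 or more, so none is a copy of another library of its own group. Libraries of different groups were not compared in this way. A planned check of gene length and GC content was not made, since no annotation of the build of the files was at hand. Alternatives covered the pseudocount, filter, scaling, robust setting, tool, replicate block, minimum difference and leaving out each library.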

Additional observations from a re-analysis of the deposited data

Results flagged for a closer look

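Among 184 sets of 6 values, made of the gene list means, the 30 named genes of the split and the library measures on either side, 9 had 1 library far from its neighbours. Chance flags about 1 in 20 sets, so this is near the number chance gives. In numbers 3 and 4, hbbe1.2 stood at 1.69 in M510F01 number 4 (log2, group mean at 0), with the other 5 libraries at or below 0.49. In the same libraries gal3st3 stood at -0.99 in boscalid number 4, with the next at -0.57.

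The other 7 sets were in numbers 1 and 2. Mean log2 levels around the group mean were 0.082 for lens genes in M510F01 number 1 (next -0.03), 0.072 for mucous cell genes in M510F01 number 2 (next -0.12), -0.19 for thyroid axis genes in M510F01 number 2 (next 0.01) and 0.12 for xanthophore and iridophore genes in DMSO number 2 (next -0.05). cckb was at -0.58 in M510F01 number 1, with the next at -0.31. In boscalid number 2 the 10 most abundant genes took 12.4% of reads (next 13.5%) and the single most abundant gene 2.26% (next 2.60%).

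The clone-named locus BX469930.1 differed between treatments in its difference between the numbers (limma interaction, adjusted p = 0.0401), with 258 and 391 normalized counts in M510F01 numbers 3 and 4 and at most 17.8 elsewhere.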

How the results depend on the processing

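The 30 named genes of the split had the same sign in all of 600 refitted values. They were picked from these same values for no overlap and large differences, which largely fixed that sign, so nothing is read from it. The counts of higher and lower genes were 5 and 47 at a minimum difference of 1, and 1447 and 2269 with no minimum. Leaving out 1 library gave 95 to 287 higher and 735 to 1386 lower genes, where fewer libraries make the rule of no overlap easier to meet. Leaving out the 3 libraries numbered 1, added after the data were seen, gave 581 lower genes. The 16 lists with a median of at least 0.2 in size were on the same side in all of 320 such values. These lists were also picked for size from these same values, which largely fixed their side, so nothing is read from it. The 39 lists under 0.2 changed side in 48 of 780.

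List medians moved to -0.17 (lymphoid) with no filter, and to -0.11 (myogenic) and -0.29 (germ cell) at a mean of at least 50. Without the libraries numbered 1 they moved to 0.090 (bone), -0.048 (endothelium), -0.29 (lymphoid), -0.033 (immediate early), 0.21 (Nrf2), -0.070 (aryl hydrocarbon receptor), 0.16 (fatty acid oxidation) and 0.00303 (spliceosome). With 1 library left out, medians ran from 0.092 to 0.17 for bone, -0.010 to 0.11 for aryl hydrocarbon receptor, -0.037 to 0.17 for globin, 0.032 to 0.089 for circadian and -0.059 to 0.062 for hair cell genes. The cause was not tested.

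The interaction called 0 genes at a pseudocount of 0.5, at a mean of at least 50, without the robust setting, without the libraries numbered 1 and under the replicate block, 4 by DESeq2, and 0 to 2 with 1 library left out. Boscalid with the split term gave 9 genes without the term, 4 without the libraries numbered 1, 316 by DESeq2, 17 under the replicate block and 2 to 509 with 1 library left out. M510F01 gave 0 in every fit run. TMM scaling gave 120 higher and 1020 lower genes.

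The replicate numbers were checked as pairs. Same-numbered libraries of different groups correlated in their deviations at 0.48 to 0.51 for number 1 and 0.03 to 0.11 for number 2. For number 3 the range was 0.01 to 0.37 and for number 4 -0.02 to 0.31. Libraries of other numbers on the same side of the split ran from -0.08 to 0.46, and those across it from -0.46 to 0.18. A low correlation cannot show that samples are unpaired, so whether the numbers pair the samples stays undecided. For low genes such as rag1 and lck the precision is limited by depth, whose part in the other differences was not tested.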

Other observations

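Some loci known only by a clone name were high in the libraries numbered 4 of both compounds, and were picked out after their values were seen. FO704772.2 had 69086 normalized counts in boscalid number 4, 28228 in M510F01 number 4 and 14882 in boscalid number 3, against a median of 2855 over the other libraries than the libraries numbered 4 of boscalid and M510F01. In DMSO it had 5686 and 2441 in numbers 3 and 4, against 4201 and 2377 in numbers 1 and 2. BX537263.3 had 457 in boscalid number 4 and 129 in M510F01 number 4, against a median of 12.4 over those other libraries. AL935186.9 had 178 and 67.8 in the same 2 libraries, against a median of 11.9, and BX548011.3 had 110 and 32.1, against 6.62. None of them met the rule of no overlap in every group.

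Placeholder names made up 42.1% of the 107 higher genes and 28.1% of the 1048 lower genes, against 26.4% of all genes tested. By level, genes with a mean of 10 to 30 normalized counts had a median log2 difference of -0.04, those of 1000 to 3000 had -0.03 and the 576 genes at 3000 or more had 0.16. Ribosomal protein genes are part of that last class.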
